A study of Homo sapiens with 6 samples.

Results

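The insulin, PI3K, AKT and mTOR pathway was examined through 36 genes, taken as every probe that the array's annotation gives to one of them under its current or an older symbol. Of these, 33 had a named probe and 30 had one that could be tested, out of 12227 tested genes in all. Expression was profiled on Illumina bead arrays in UWB1.289, an ovarian carcinoma cell line of human origin without functional BRCA1. Its RNA was taken 48 hours after transfection with a scrambled siRNA (siCTRL, 3 samples) or with an siRNA against HBO1 (siHBO1, 3 samples). HBO1, encoded by KAT7, is a histone acetyltransferase. All 6 samples came from 1 cell line, and nothing in the labels tells whether replicates were grown as separate cultures. The p-values therefore reflect the scatter among these samples alone, and that scatter may be technical. With 1 group of siHBO1 samples, effects of the siRNA itself and of HBO1 loss cannot be told apart.

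Insulin and the insulin-like growth factors bind receptor tyrosine kinases, which phosphorylate IRS adaptors, and these dock the p85 regulatory subunits of PI3K. The lipid made by PI3K recruits AKT and its activating kinase PDPK1 to the membrane, and lipid and protein phosphatases reverse these steps. AKT restrains the TSC complex, which frees the GTPase RHEB to activate mTOR complex 1 at the lysosome, where Rag GTPases bring the complex when amino acids are plentiful. In ovarian carcinoma the pathway is often active, and FOXO factors that AKT holds in check are known to raise transcripts of some upstream components, IRS2 among them.

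Levels are given as normalised log2 intensity on each array, differences as log2 fold changes of siHBO1 minus siCTRL, and a probe counts as detected where its detection p was under 0.05. The target was checked first. KAT7 was at 7.82 ± 0.23 (SD, n = 3) in siCTRL and 5.95 ± 0.35 (SD, n = 3) in siHBO1 on the scale of normalised log2 intensity, which left 27.3% of the control signal (adjusted p = 0.0186 by limma). That call was lost without siCTRL replicate 2 or 3 or siHBO1 replicate 1 or 2, with log2 fold changes from -2.04 to -1.69 over the 6 omissions. KAT7 was detected on 2 of 3 siHBO1 arrays, and the size of the decrease depended on the background: the log2 fold change was -1.44 with an offset of 50 and -0.74 without background correction. Between 20546 and 21507 of 47316 probes were detected per array, and the 6 epithelial markers examined (EPCAM, KRT7, KRT8, KRT18, KRT19 and CDH1) were detected on all 6 arrays. So were the ovarian or Müllerian markers PAX8, MUC16 and SOX17, while WT1 and FOLR1 were not detected on every array. Of the markers of other cell types, 0 of 5 for fibroblasts, 1 of 4 for leukocytes (CD68) and 2 of 3 for endothelium (PECAM1 and CDH5) were detected on all 6 arrays, and LUM, COL3A1, PDGFRB, PTPRC and CD3E were detected on 0 arrays.

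Few genes of the pathway differed between the groups beyond the adjusted threshold. By limma with Benjamini-Hochberg adjustment over all tested probes, 1 of 30 tested members passed an adjusted p of 0.05, namely PIK3R3, which rose, and 0 fell. PIK3R3 met the detection filter mainly through the siHBO1 arrays, where it was higher (3 of 3, against 1 of 3 siCTRL arrays), so the filter favoured a difference, and with no filter its adjusted p was 0.0635. Among all tested genes 3.19% passed, 1.91% higher (234 genes) and 1.28% lower (156 genes), and with median scaling the split was 169 higher and 225 lower. At an unadjusted p under 0.05 there were 7 members, 4 higher and 3 lower, against 23.8% of all tested genes, 12.9% higher and 10.9% lower. The 3 arrays of one group lay wholly above or below the other 3 for 9 of 30 members, against 30.9% of all tested genes. Each of these shares of members lay close to that of the whole array. The median log2 fold change over the 30 members was -0.00091, with 15 values above 0 and 15 below, and that over all tested genes was 0.01. For 18 of 30 members the 95% confidence interval lay inside a change of 1.5-fold in either direction, and for 67.2% of all tested genes it did.

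**Figure D1:**
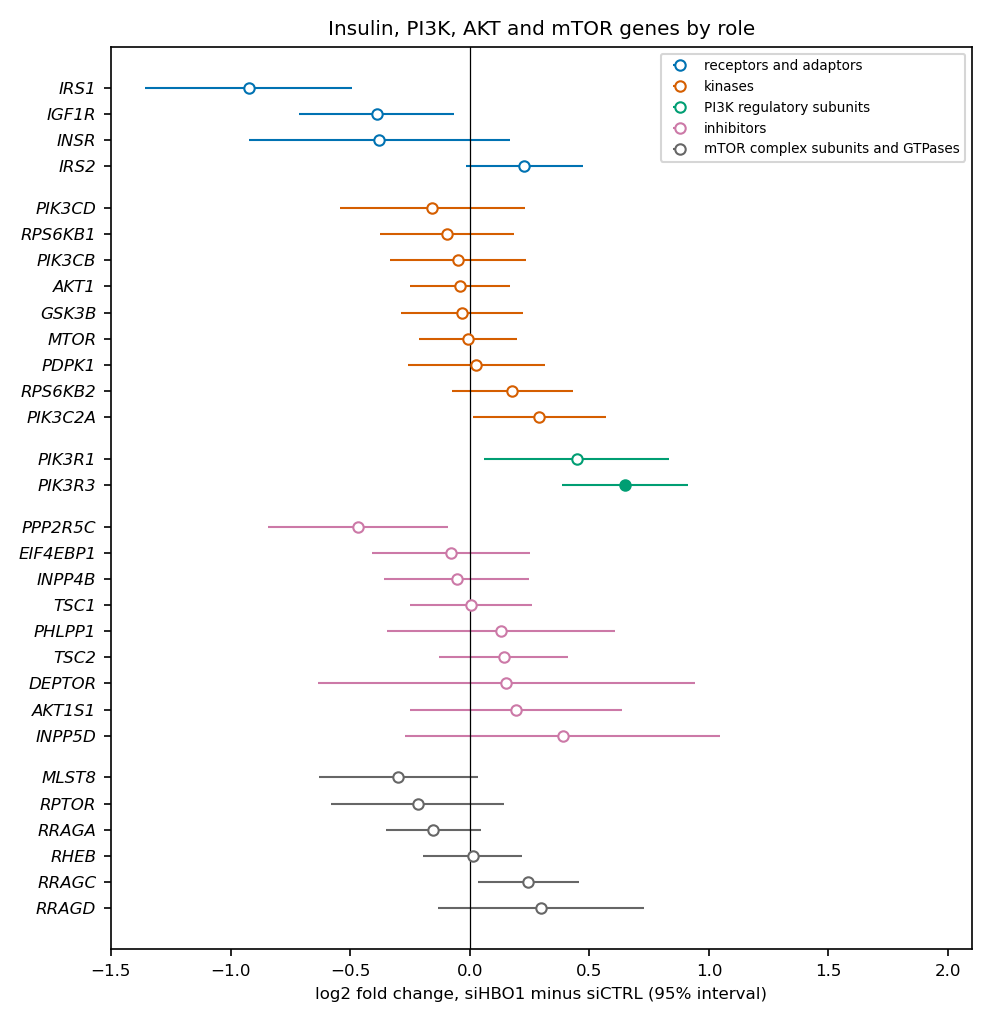
Log2 fold change (siHBO1 minus siCTRL, x axis) of the 30 tested members, each by its brightest tested probe, grouped by role in colour. Lines are 95% confidence intervals from 3 arrays per group, and the filled circle marks the member past an adjusted p of 0.05 (PIK3R3, 0.65), while IRS1 lay farthest below 0 at -0.92.

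The region before the gene start is shown for 3 members: PIK3R3, the one that passed the test, IRS1, the one farthest from 0, and RRAGC, whose groups did not overlap and whose window holds an E-box. Each run is the 250 bases before a RefSeq start in GRCh38.p14, read 5′ to 3′ on the minus strand, and CACGTG, the E-box bound by TFEB and MYC, is in capitals. PIK3R3 has 6 such windows for its different starts, and the first listed in the RefSeq table is shown, since the start used in these cells was not examined.
PIK3R3, chr1:46132630-46132879: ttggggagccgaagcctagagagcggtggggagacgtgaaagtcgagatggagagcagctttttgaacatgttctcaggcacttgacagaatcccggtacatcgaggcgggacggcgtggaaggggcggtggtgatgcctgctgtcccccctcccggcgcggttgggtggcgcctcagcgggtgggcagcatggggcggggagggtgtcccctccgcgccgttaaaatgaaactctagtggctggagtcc
IRS1, chr2:226799821-226800070: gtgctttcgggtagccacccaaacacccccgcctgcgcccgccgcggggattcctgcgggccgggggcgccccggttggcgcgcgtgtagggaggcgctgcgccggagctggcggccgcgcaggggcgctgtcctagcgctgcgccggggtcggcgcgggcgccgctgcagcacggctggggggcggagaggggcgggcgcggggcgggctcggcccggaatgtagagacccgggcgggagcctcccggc
RRAGC, chr1:38859773-38860022: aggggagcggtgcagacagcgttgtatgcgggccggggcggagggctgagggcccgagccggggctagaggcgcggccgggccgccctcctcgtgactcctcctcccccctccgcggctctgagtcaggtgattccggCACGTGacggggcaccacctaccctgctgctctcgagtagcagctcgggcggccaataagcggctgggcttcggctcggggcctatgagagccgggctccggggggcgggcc
In IRS1 the E-box lies after the start, with its first base at position 36 of the transcript, in this stretch of 30 bases.
IRS1, chr2:226799771-226799800: gcgcggaggctccgtCACGTGtttttctcc
In RRAGC the E-box starts 112 bases before the start. The 250 bases were 80.8% G or C for IRS1, 73.6% for RRAGC and 63.6% for PIK3R3. CACGTG, which reads the same on both strands, was found in 5 of 51 windows of members (9.8%), those of IRS1, RRAGC, INPP4B, TSC2 and LAMTOR1, and in 7.26% of 35116 windows of all genes. TGTTTAC, the FOXO core, was searched on both strands and was found in 2 of 51 windows of members (3.92%), those of PPP2R5C and PIK3CA, and in 3.42% of all windows. The windows run from 250 bases before to 50 after each start, 30 of 36 members had at least 1, and no member's window held both motifs. Of the tested members with CACGTG, RRAGC had a log2 fold change of 0.24, TSC2 0.14, INPP4B -0.05 and IRS1 -0.92, on both sides of 0. These matches describe letters and show no binding.

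Receptors and adaptors came first in the order of signalling, and 0 of 4 passed the test in limma, against 3.19% of all tested genes. At an unadjusted p under 0.05 there were 2, both below 0, against 23.8% of all tested genes in either direction and 10.9% lower. The 2 were IRS1 and IGF1R. Since IRS1 met the detection filter only through the group where it was higher, this count supports no contrast. IRS1, the adaptor that links the insulin and IGF1 receptors to PI3K, read 6.41, 6.13 and 6.55 in siCTRL and 5.38, 5.16 and 5.78 in siHBO1. The groups did not overlap, and the gene was detected on 3 of 3 siCTRL arrays and on 0 of 3 siHBO1 arrays. Since the siHBO1 level is only a bound, the difference is given as at least 1.44-fold lower, and the fitted log2 fold change was -0.92 (SE 0.18, 95% confidence interval -1.36 to -0.49) with an adjusted p = 0.0511, just outside the threshold. IRS1 met the detection filter through the siCTRL arrays alone, where it was higher, so its calls under other settings add no support. It passed the threshold under 9 of 16 alternatives (adjusted p from 0.0257 to 0.0499) and not under 7 (up to 0.162), had an adjusted p = 0.0831 with no filter, and was left out by the stricter one. Its log2 fold change was -0.27 when no background was subtracted. In bulk RNA, fewer cells with a transcript and less of it per cell cannot be told apart.

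IRS2, the other widely expressed IRS adaptor, had values on the other side of 0. Its arrays read 10.55, 10.42 and 10.57 in siCTRL and 10.75, 10.61 and 10.86 in siHBO1, with a log2 fold change of 0.23 (SE 0.10, adjusted p = 0.264). The groups narrowly did not overlap, and the interval of -0.02 to 0.47 includes 0. The difference between the changes of IRS1 and IRS2 was not tested.

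The 2 receptors had values below 0 and did not pass. IGF1R, the receptor for IGF1 and IGF2, read 7.15, 7.13 and 7.49 in siCTRL and 6.99, 6.93 and 6.68 in siHBO1, with no overlap (log2 fold change -0.39, SE 0.14, adjusted p = 0.168). Without background correction it was at -0.16. INSR, the insulin receptor, read 6.06, 6.74 and 6.41 in siCTRL and 6.44, 5.91 and 5.73 in siHBO1. Its groups overlapped, it was detected on 5 of 6 arrays, and its log2 fold change of -0.38 (SE 0.23, adjusted p = 0.402) had an interval from -0.92 to 0.17. It ran from -0.59 to -0.21 on leaving out 1 array and was -0.11 without background correction. The median of the 4 genes was -0.38, and it was -0.14 without background correction.

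The 2 tested PI3K regulatory subunits had values above 0. PIK3R3, the p55γ subunit that docks PI3K on phosphorylated adaptors, read 5.60, 5.71 and 5.93 in siCTRL and 6.33, 6.43 and 6.42 in siHBO1. Every siHBO1 array was above every siCTRL array on this normalised scale. The means were 5.74 ± 0.17 (SD, n = 3) and 6.40 ± 0.05 (SD, n = 3), a rise of 1.57-fold (log2 fold change 0.65, SE 0.11, 95% confidence interval 0.39 to 0.91, adjusted p = 0.0371). PIK3R3 was detected on 1 of 3 siCTRL arrays and on 3 of 3 siHBO1 arrays, so the fold rests on a control level near background, detected on 1 array. In raw intensity siHBO1 replicate 2 (249.74) lay just under siCTRL replicate 2 (250.64), where the array medians were 205.41 and 242.57. The call was lost under 10 of 16 alternatives: with any 1 of the 6 arrays left out (0.58 to 0.74, adjusted p from 0.068 to 0.143), without background correction (0.19), with no detection filter, with a trended prior and with the replicate block.

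PIK3R1, the p85α subunit and the most widely used partner of the PI3K catalytic subunits, read 8.68, 8.83 and 8.61 in siCTRL and 9.14, 9.47 and 8.85 in siHBO1. The groups narrowly did not overlap, and siHBO1 replicate 2 was the highest. Its log2 fold change was 0.45 (SE 0.16, interval 0.06 to 0.83) with an adjusted p = 0.178, so it did not pass. A second PIK3R1 probe, detected on 4 of 6 arrays, was at 0.06 (SE 0.31), and the mean of the tested probes was at 0.25. PIK3R2, the p85β subunit, has no probe named in the annotation used here.

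**Figure D2:**
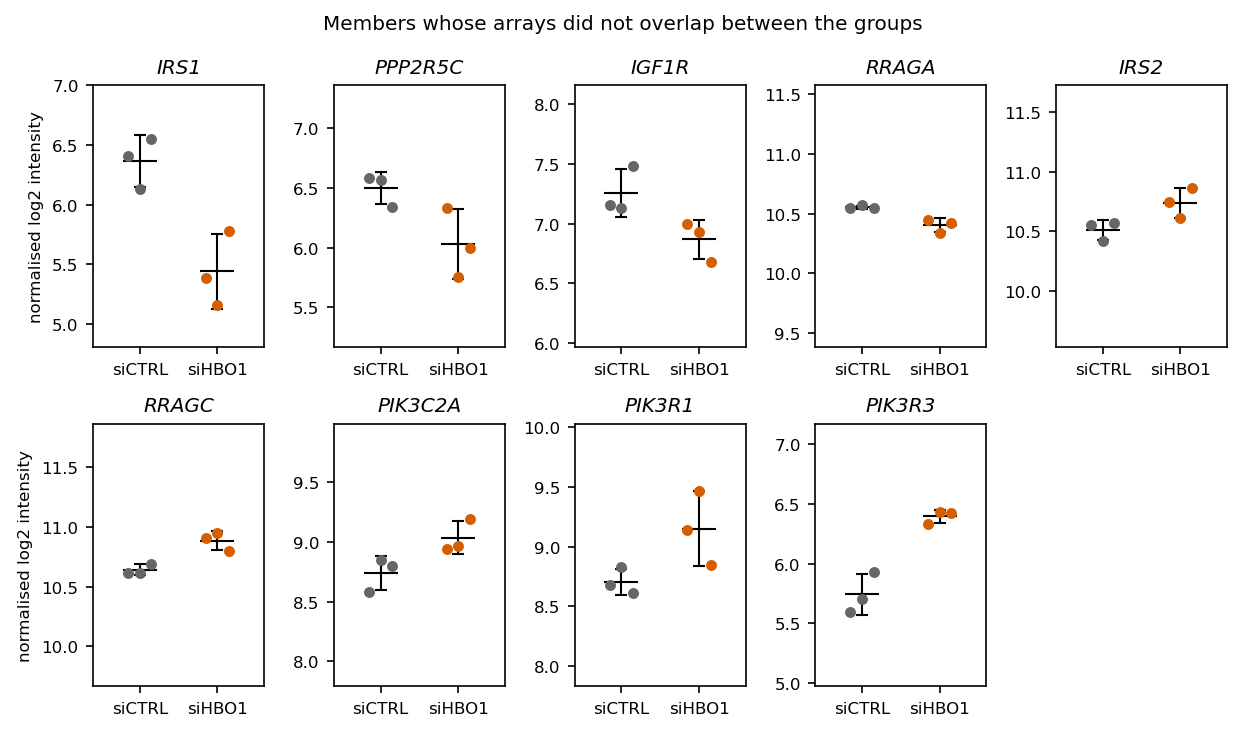
Normalised log2 intensity (y axis) on each array for the 9 members whose siCTRL (grey) and siHBO1 (orange) arrays did not overlap, with group means and SD as bars (n = 3). Every panel spans the same range, so IRS1, PIK3R3, PPP2R5C and PIK3R1 show the widest gaps between means and RRAGA (10.55 against 10.40) the narrowest.

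By their brightest probes most kinases had values close to 0. Of 9 tested kinases 0 passed in limma and 1 had an unadjusted p under 0.05, against 3.19% and 23.8% of all tested genes. Their median log2 fold change was -0.03, and all 9 intervals lay inside 1.5-fold. The median of their absolute log2 fold changes was 0.05, against 0.16 over all tested genes. That gap depended on the probe and the scaling chosen and was not tested. By the probe with the smallest p, AKT1 was at -0.32 and PDPK1 at -0.19. With median scaling PIK3CB was at -0.11, AKT1 at -0.13 and GSK3B at -0.12, while RPS6KB2 moved nearer to 0, at 0.087. MTOR, the kinase of both mTOR complexes, read 10.58, 10.66 and 10.71 in siCTRL and 10.60, 10.65 and 10.68 in siHBO1, with an interval from -0.21 to 0.20. GSK3B, a kinase that AKT inhibits, read 10.92, 11.06 and 11.19 in siCTRL and 11.08, 10.91 and 11.08 in siHBO1. The groups overlapped for both genes.

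Among the catalytic subunits of PI3K, PIK3CB, p110β, was at -0.05 (SE 0.12) and PIK3CD, p110δ, at -0.16 (SE 0.16), or from -0.29 to -0.045 with 1 array left out. PIK3C2A, a class II enzyme that acts in endocytosis, read 8.58, 8.85 and 8.80 in siCTRL and 8.95, 8.97 and 9.19 in siHBO1. By brightest probe this was the only kinase without overlap, and its log2 fold change of 0.29 (SE 0.12, adjusted p = 0.213) did not pass. PIK3CA, p110α, has no probe named in the annotation used here. For RPS6KB1, the S6 kinase of mTOR complex 1, the value was -0.10 (SE 0.12), and for its relative RPS6KB2 it was 0.18 (SE 0.11). PDPK1, which phosphorylates the activation loop of AKT, was at 0.03 (SE 0.12). For PIK3CB, PDPK1, AKT1, MTOR, RPS6KB1 and GSK3B the sign flipped under at least 1 alternative, so these values carry no direction.

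AKT1 is measured by 3 tested probes that did not all give the same value. The brightest, ILMN_2388507, read 11.87, 12.02 and 11.91 in siCTRL and 11.91, 11.85 and 11.91 in siHBO1, with overlap (log2 fold change -0.04, SE 0.09). The second, ILMN_2410909, is annotated to another AKT1 transcript and read 11.87, 12.06 and 11.98 in siCTRL and 11.69, 11.66 and 11.59 in siHBO1, with no overlap (-0.32, SE 0.09, adjusted p = 0.114). Neither passed, and their intervals of -0.25 to 0.17 and -0.54 to -0.10 overlap. ILMN_2410909 was the brighter of these probes in siCTRL (mean 11.97 against 11.93) and the dimmer in siHBO1 (11.65 against 11.89). It thus ranked second through the siHBO1 arrays, and the AKT1 value near 0 depends on which probe is taken. The third, detected on 3 of 6 arrays, was at -0.21 (SE 0.17).

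In all, 7 members had at least 2 tested probes, and in 4 of them every probe had the same sign. RPS6KB2 was at 0.18 on one probe and -0.13 (SE 0.12) on the other, and PDPK1 at 0.03 and -0.19 (SE 0.09). On the second PDPK1 probe the groups did not overlap, and it did not pass in limma (adjusted p = 0.281). DEPTOR was at 0.15 and 0.43 (SE 0.31), PIK3R1 at 0.45 and 0.06. PIK3C2A was at 0.29 and 0.001 (SE 0.18), and the 3 TSC1 probes were at 0.01, -0.07 and -0.17. No member had a called probe besides its brightest, since 1 of 39 tested probes passed, that of PIK3R3.

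**Figure D3:**
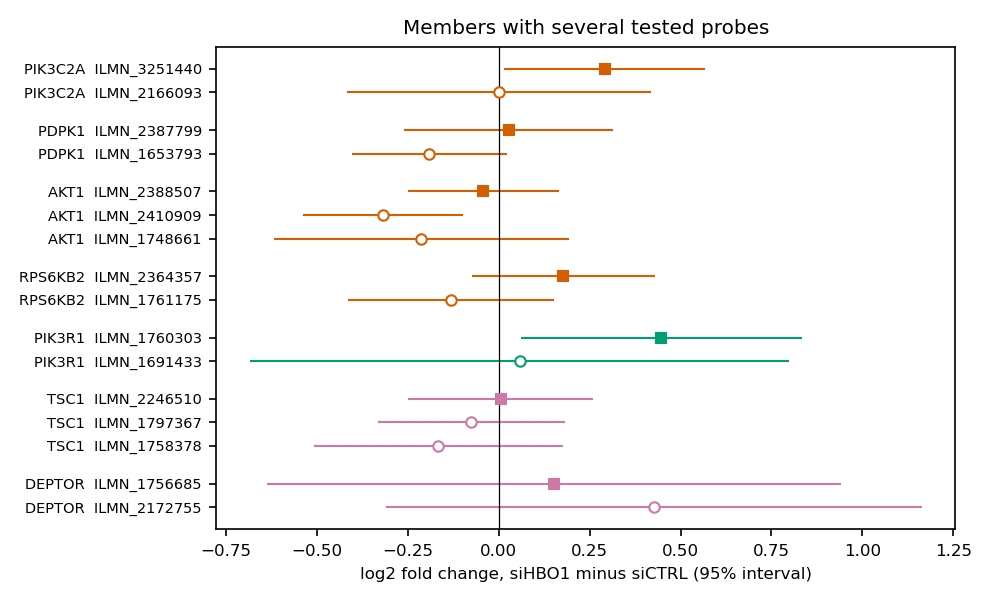
Log2 fold change (siHBO1 minus siCTRL, x axis) with 95% confidence intervals for each tested probe of the 7 members with several tested probes (kinases orange, regulatory subunit green, inhibitors pink). Filled squares are the brightest probe of a gene and open circles the others, and within every gene the intervals overlap.

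Inhibitors of the pathway did not pass either, with 0 of 9 called in limma, 1 at an unadjusted p under 0.05 (against 3.19% and 23.8% of all tested genes), 6 values above 0 and 3 below, and a median log2 fold change of 0.13. PPP2R5C, a regulatory subunit that directs the phosphatase PP2A to its substrates, read 6.58, 6.57 and 6.34 in siCTRL and 6.34, 5.76 and 5.999 in siHBO1. The highest siHBO1 array lay just under the lowest siCTRL array (log2 fold change -0.47, SE 0.16, adjusted p = 0.159), and without background correction the value was -0.14. PHLPP1, a phosphatase that dephosphorylates AKT, was detected on 3 of 6 arrays and was at 0.13 (SE 0.20), with a sign that flipped on leaving out siHBO1 replicate 1.

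The lipid phosphatases act on the products of PI3K. INPP4B, which removes the 4-phosphate of PI(3,4)P2, read 10.36, 10.62 and 10.60 in siCTRL and 10.33, 10.41 and 10.67 in siHBO1, with overlap (-0.05, SE 0.13). INPP5D, the phosphatase SHIP1 known mainly from blood cells, was detected on 4 of 6 arrays and read 5.87, 6.05 and 5.66 in siCTRL and 6.86, 5.69 and 6.21 in siHBO1. Its value of 0.39 (SE 0.28) rested on siHBO1 replicate 1, without which it was 0.09.

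TSC1 and TSC2 form the complex that turns RHEB off. TSC2 read 8.04, 7.92 and 8.20 in siCTRL and 8.15, 8.10 and 8.34 in siHBO1 (0.14, SE 0.11, or 0.071 to 0.21 with 1 array left out), with overlap, and TSC1 was at 0.01 (SE 0.11) on its brightest probe. AKT1S1, the mTOR complex 1 inhibitor PRAS40, read 7.68, 7.14 and 7.53 in siCTRL and 7.76, 7.32 and 7.84 in siHBO1 (0.19, SE 0.19). It was at 0.041 without siCTRL replicate 2 and 0.35 without siHBO1 replicate 2. DEPTOR, an inhibitor that binds mTOR itself, varied most within groups, with siCTRL values of 7.88, 7.35 and 7.06 and siHBO1 values of 8.12, 7.73 and 6.90 (0.15, SE 0.33). EIF4EBP1, which holds back translation initiation until mTOR complex 1 phosphorylates it, was at -0.08 (SE 0.14). The signs of TSC1, DEPTOR, EIF4EBP1 and INPP4B flipped under at least 1 alternative.

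Of the subunits and GTPases that serve mTOR, 0 of 6 passed in limma, 1 had an unadjusted p under 0.05 (against 3.19% and 23.8% of all tested genes), 3 were above 0 and 3 below, with a median log2 fold change of -0.07. The Rag GTPases work as pairs of RRAGA or RRAGB with RRAGC or RRAGD. RRAGC, a known target of TFEB, read 10.61, 10.62 and 10.69 in siCTRL and 10.91, 10.95 and 10.80 in siHBO1. The groups did not overlap, and the log2 fold change of 0.24 (SE 0.09, interval 0.03 to 0.45, adjusted p = 0.178) did not pass. RRAGD, also a TFEB target, read 10.41, 10.38 and 10.20 in siCTRL and 10.73, 10.92 and 10.22 in siHBO1, where replicate 3 lay within the control range (0.30, SE 0.18). It was at 0.15 without siHBO1 replicate 2 and 0.50 without siHBO1 replicate 3. RRAGA was lower on all siHBO1 arrays, at 10.45, 10.34 and 10.42 against 10.55, 10.57 and 10.55, a difference of -0.15 (SE 0.08, adjusted p = 0.352).

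The core subunits of the mTOR complexes had values below 0. MLST8, shared by both complexes, read 9.78, 9.28 and 9.53 in siCTRL and 9.35, 9.15 and 9.19 in siHBO1 (-0.30, SE 0.14, adjusted p = 0.28). RPTOR, the substrate-binding subunit of complex 1, read 7.40, 7.21 and 7.14 in siCTRL and 6.79, 6.98 and 7.33 in siHBO1 (-0.22, SE 0.15, adjusted p = 0.472). Both overlapped between the groups, and with 1 array left out they ran from -0.42 to -0.17 and from -0.36 to -0.095. RHEB, the GTPase that activates complex 1, lay between 13.70 and 13.83 on all 6 arrays (0.01, SE 0.09), with a sign that flipped under median scaling.

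Some members could not be tested. AKT2, the AKT isoform most tied to insulin-driven glucose uptake, was detected on 0 of 6 arrays by its single named probe. GSK3A, the close relative of GSK3B, was detected on 1 siHBO1 array and 0 siCTRL arrays. RICTOR, the defining subunit of mTOR complex 2, was detected on 2 of 3 siCTRL arrays and 0 of 3 siHBO1 arrays, with values of 5.94, 5.56 and 5.90 against 5.38, 5.44 and 5.79, which overlap. Besides PIK3CA and PIK3R2, LAMTOR1, which anchors the Rag GTPases at the lysosome, had no named probe.

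Set side by side, the median log2 fold changes were -0.38 for the 4 receptors and adaptors, 0.55 for the 2 regulatory subunits, -0.03 for the 9 kinases, 0.13 for the 9 inhibitors and -0.07 for the 6 subunits and GTPases of mTOR, where all tested genes had 0.01. The inhibitor median was between 0.015 and 0.14 with 1 array left out and 0.036 without background correction, and the mTOR median was -0.14 with median scaling and -0.15 with no detection filter. Without background correction the receptor median was -0.14 and the regulatory median 0.26. With detection p under 0.01 required on all 6 arrays the receptor median was -0.081. The groups of arrays did not overlap for 3 of 4 receptors and adaptors and 2 of 2 regulatory subunits. For kinases this held for 1 of 9, for inhibitors 1 of 9 and for mTOR genes 2 of 6, where the share was 30.9% over all tested genes. These counts pool both directions. Both the counts and the class medians include IRS1 and PIK3R3, which met the detection filter only or mainly through the group where they were higher. Neither the counts nor the medians therefore support a contrast between classes. These classes are small and their differences were not tested. Several of the values that lay away from 0 came from dim probes (IRS1, PIK3R3, PPP2R5C and INSR were each detected on fewer than 6 arrays), and how far signal near background contributed to them was not tested.

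A list of 100 other genes of insulin and mTOR signalling was examined for context, of which 97 had a named probe and 87 were tested. In this list 4 genes rose and 1 fell, 5 of 87 against 3.19% of all tested genes, and the median log2 fold change was 0.0017. The list was written with a summary of these data in view, so its share gives no independent comparison. ULK1, the autophagy kinase that mTOR complex 1 inhibits, read 11.89, 11.68 and 11.53 in siCTRL and 12.57, 12.51 and 12.38 in siHBO1, a rise of 1.73-fold (log2 fold change 0.79, SE 0.12, adjusted p = 0.0287). A second ULK1 probe gave 0.81 (adjusted p = 0.0277). DDIT4, an inhibitor of mTOR complex 1 that acts through TSC, read 12.77, 12.58 and 12.58 in siCTRL and 13.52, 13.29 and 13.19 in siHBO1, a rise of 1.61-fold (0.69, SE 0.12, adjusted p = 0.0375). For both genes every siHBO1 array was above every siCTRL array.

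LPIN1, a phosphatidate phosphatase that mTOR complex 1 keeps out of the nucleus, lay between 11.37 and 11.53 in siCTRL and between 11.90 and 12.03 in siHBO1 (0.49, SE 0.09, adjusted p = 0.0454). FOXO3, a transcription factor that AKT excludes from the nucleus, lay between 12.11 and 12.23 in siCTRL and between 12.57 and 12.73 in siHBO1 (0.48, SE 0.09, adjusted p = 0.0468), and its other tested probe was at 0.21 (adjusted p = 0.305). The gene that fell was PRKAA1, the α1 catalytic subunit of AMPK, an energy sensor that restrains mTOR complex 1. Its arrays read 11.12, 11.24 and 11.39 in siCTRL and 10.56, 10.37 and 10.58 in siHBO1, a fall of 0.75 on the log2 scale (SE 0.11, adjusted p = 0.0277), and a second probe fell by 0.78 (adjusted p = 0.0254). PRKAG2, the γ2 subunit of AMPK, named after its values were seen, just missed the threshold by its brightest probe, at -0.40 (SE 0.08, adjusted p = 0.0533), and its other tested probe fell by 0.50 (adjusted p = 0.0447). The arrays did not overlap on either probe, and PRKAG2 passed under several alternatives, the authors' values and median scaling among them. It did not pass with no detection filter, with the replicate block or with any 1 array left out. With any 1 array left out 0 of these 5 genes passed, and with median scaling DDIT4 (0.61), LPIN1 (0.41) and FOXO3 (0.40) lost the call. With the replicate block PRKAA1 (adjusted p = 0.0516), LPIN1 (adjusted p = 0.0643) and FOXO3 (adjusted p = 0.0749) lost it. With no detection filter DDIT4, LPIN1 and FOXO3 lost it, and FOXO3 also lost it with probes averaged per gene. The 5 genes had adjusted p from 0.0508 to 0.163 when 1 array was left out.

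Of the 82 genes in this list that did not pass, the 6 with the largest values were named. IGFBP7 and IGFBP2, which bind insulin-like growth factors or their receptor, were at 0.81 (SE 0.20, adjusted p = 0.0829) and 0.53 (SE 0.12, adjusted p = 0.0696). FOXO4, a relative of FOXO3, was at 0.54 (SE 0.17, adjusted p = 0.132). SEH1L, shared by the nuclear pore and the GATOR2 complex of amino acid sensing, was at -0.47 (SE 0.12, adjusted p = 0.0901), and PRR5L, a protein bound to mTOR complex 2, at -0.52 (SE 0.21, adjusted p = 0.208). PRR5L was detected on 3 of 3 siCTRL arrays and 1 of 3 siHBO1 arrays, so it met the filter mainly through the group where it was higher. Its value ran from -0.73 to -0.15 over the alternatives. SGK1, a kinase downstream of mTOR complex 2, read 10.46, 11.36 and 11.39 in siCTRL and 9.93, 10.70 and 11.31 in siHBO1, so that its value of -0.42 (SE 0.39) lay within the spread between replicates.

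**Figure D4:**
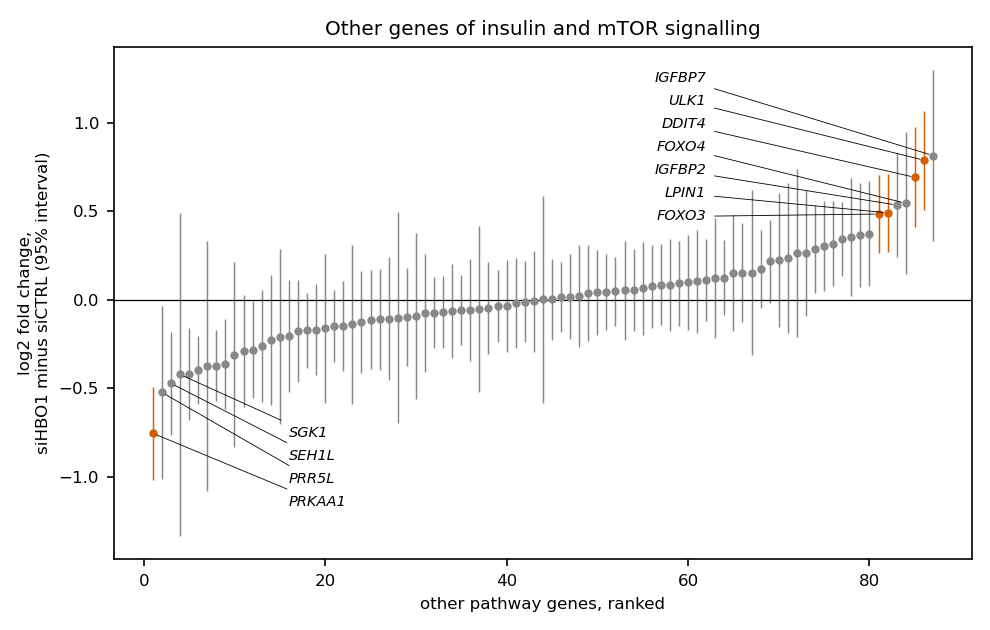
Log2 fold change (siHBO1 minus siCTRL, y axis) with 95% confidence intervals of the 87 other tested genes of insulin and mTOR signalling, ranked along the x axis. Orange marks the 5 genes past an adjusted p of 0.05 (PRKAA1 below 0, and FOXO3, LPIN1, DDIT4 and ULK1 above), and the 6 largest of the others are also labelled.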

How the data were processed

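RNA was measured on Illumina bead arrays, 3 siCTRL and 3 siHBO1 samples of UWB1.289 cells. The submitters' processing notes name GenomeStudio and lumi without settings. Per the file headers, the deposited table holds each probe's average bead intensity and a detection p-value per array. The deposited series matrix holds the authors' log2 intensity with the same median of 6.31 in every column, taken from the values to be quantile-normalised, with its background handling unknown, and was used as an alternative to the values computed here.

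Here the neqc method of limma 3.58.1 (R 4.3.3) corrected the background and made the quantiles equal, adding an offset of 16 and inferring the negative controls from detection p-values. Probes with a detection p under 0.05 on at least 3 of 6 arrays were tested (21333 of 47316) with lmFit and eBayes on 2 group means, with the Benjamini-Hochberg adjustment taken over all of them. A gene is its tested probe with the highest mean. Standard errors are limma's moderated ones. Exact permutation of 3 against 3 arrays cannot go below 0.1 and was not used for calls. Array number limits the precision. Symbols came from the platform annotation, updated through Entrez identifiers (30070 of 30109 probes with 1 symbol). No build is named for the probes, so probe coordinates are not given, and promoter sequences are RefSeq's (GRCh38.p14). The fit was tested on simulated data.

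The members and lists were chosen with earlier results of these data known. All members were named, and of the 100 other pathway genes those past the threshold and the 6 next largest. Alternatives concerned the background (none, or an offset of 50), scaling (by the median, or the authors' values), the filter (none, or a stricter one of 0.01 on all 6 arrays), the model (a robust trended prior, weights per array, or the replicate number as a block), the choice of probe (smallest p, or the mean), the threshold, and each array left out in turn. No slide was given, so none was used as a block.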

Additional observations from a re-analysis of the deposited data

How the results depend on the processing

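The number of called genes (390) was 682 with the authors' values, 1307 without background correction, 713 with an offset of 50, 171 with no detection filter, 810 with the strict detection filter, 1346 with the trended and robust prior, 623 with array weights, 726 with probes averaged per gene, and 0 or 1104 at adjusted p thresholds of 0.01 or 0.1. For the 36 members the count (1) was 2 with the authors' values, median scaling, an offset of 50, array weights, the mean of probes or a threshold of 0.1, where PIK3R3 and IRS1 both passed, and 0 with no detection filter, with the strict filter, which leaves out both genes, or at 0.01. For the other pathway genes (5) it was 14 without background correction or with the trended prior, 9 with an offset of 50, 12 with the strict filter or at 0.1, 3 with median scaling, 2 with no detection filter and 0 at 0.01. With the replicate block 202 genes passed in limma, among them 1 member (IRS1) and 2 other pathway genes (DDIT4 and ULK1). PIK3R3 then had an adjusted p = 0.0553. Deviations of same-numbered arrays correlated at 0.26, -0.02 and 0.22, and those of differently numbered arrays at -0.28 to 0.09. The labels do not say whether equal numbers mark a pair. Pairing was not tested, and the main fit used none. Leaving out 1 array gave 0 to 180 genes in limma (0 without siCTRL replicate 2 or 3, where 2068 and 2080 had an unadjusted p under 0.05), 0 to 1 members (IRS1 without siHBO1 replicate 3) and 0 other pathway genes, with 3 to 6 members and 16 to 22 other genes at an unadjusted p under 0.05.

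KAT7 ranged from -2.04 to -1.69 on leaving out 1 array and lost its call in 4 of 6 cases. The median of receptors and adaptors (-0.38) was -0.14 without background correction and -0.081 with the strict filter, that of regulatory subunits (0.55) was 0.26 without background correction, and that of kinases (-0.03) was -0.11 with median scaling and -0.075 to 0.023 on leaving out 1 array. Signs flipped for PDPK1 (-0.035 with median scaling, -0.19 by its probe with the smallest p, -0.081 by the mean), TSC1 (-0.057, -0.17 and -0.078 in the same order) and RHEB (-0.061 with median scaling, -0.00087 with array weights). Leaving out 1 array gave -0.15 to 0.023 for PIK3CB, -0.033 to 0.12 for PDPK1, -0.075 to 0.0013 for AKT1, -0.041 to 0.021 for MTOR, -0.16 to 0.0092 for RPS6KB1, -0.10 to 0.035 for GSK3B, -0.16 to 0.016 for INPP4B, -0.014 to 0.33 for PHLPP1, -0.062 to 0.066 for TSC1, -0.12 to 0.50 for DEPTOR, -0.17 to 0.022 for EIF4EBP1 and -0.016 to 0.048 for RHEB. The cause of these changes was not tested. Signals near background limit IRS1, PIK3R3, INSR, PPP2R5C, INPP5D and PHLPP1 among the members, and PRR5L among the other pathway genes named.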
